A study of Mus musculus with 12 samples.

Results

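The bile acid and organic anion transporters of the hepatocyte were followed by the RNA of 10 genes in mouse primary hepatocytes. The genes were chosen by name, with earlier results of these data known, and all 10 were found among the 16728 genes of the deposited table. They were the uptake carrier genes Slc10a1, Slco1b2, Slco1a1, Slco1a4 and Slco2b1, the canalicular genes Abcc2, Abcg2 and Atp8b1, and the basolateral efflux genes Abcc3 and Abcc4. RNA was sequenced in 12 libraries, 3 in each of 4 groups. KO FAC held Fxr-/- cells treated for 24 h with FAC at 100 µM, and KO AC held Fxr-/- cells given AC at the same dose and time. WT FAC and WT AC held wild-type cells treated in the same ways. Library numbers ran from 1 to 3 for AC and from 4 to 6 for FAC. All cells were liver-derived, labelled C57BL/6 and cultured in DMEM with serum, and every group received either FAC or AC, so no group was untreated. The series title ties the study to iron overload, and FAC and AC stand unexpanded in the labels. The age and sex of the mice, how the Fxr allele was made, and whether replicate libraries stem from different mice or cultures are not given in the sources used here. P-values therefore measure only the spread between these samples.

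Hepatocytes move bile acids and other organic anions from portal blood to bile. Slc10a1 and the Slco carriers bring them in across the basolateral (sinusoidal) membrane, and ATP-driven pumps of the Abcc, Abcg and Abcb families send them across the canalicular membrane into bile. Abcc3 and Abcc4 sit on the basolateral side and return anions to blood. They are known to rise in cholestasis, when uptake carriers often fall. Fxr (gene Nr1h4) is a nuclear receptor that bile acids activate, and it controls many genes of this circuit.

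Library totals lay between 16464494 and 18335700 estimated reads. Of the listed genes, 12275 passed a filter on low counts and were tested, among them all 10 transporters. Nr1h4 had a mean of 4.29 ± 0.69 CPM in KO FAC, 7.92 ± 1.26 in KO AC, 7.21 ± 0.41 in WT FAC and 13.9 ± 1.5 in WT AC (SD, n = 3 each). CPM gives a gene's estimated reads for every 1000000 in the scaled library. KO libraries thus kept reads of the gene, at log2 fold changes of −0.75 ± 0.16 (SE) against WT under FAC and −0.81 ± 0.14 under AC (edgeR adjusted p = 0.00157 and 0.000535). These counts cover the whole gene and give no test of a deleted part. On the third principal component, which held 7.42% of the variance, the KO libraries were divided: KO FAC 5 and KO FAC 6 shared a sign with KO AC 1, and KO FAC 4 shared the other sign with KO AC 2 and KO AC 3. Counts are therefore also given without KO AC 1 and 1 of the KO FAC libraries, number 6 or number 4. Leaving out number 4 makes the FAC and AC libraries of KO cells differ in sign on this component.

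The cells carried hepatocyte markers, with Alb at a mean of 22000 CPM in KO FAC, 18200 in KO AC, 27900 in WT FAC and 20400 in WT AC. Of the 10 hepatocyte markers, 8 were higher in KO than WT under FAC (24.6% of all tested genes) and 8 under AC (21.7%). Lower were 1 under FAC (Alb, beside 24.9% of all tested genes) and 2 under AC (Alb and Apob, beside 21.2%). The markers higher in KO ran from 1.95-fold (Serpina1a) to 37-fold (Pck1) under FAC and from 1.91-fold to 42.7-fold (the same genes) under AC. Under FAC, Cyp2e1 was 8.67-fold, Tat 7.58-fold and Cps1 7.12-fold higher. Pck1 had 10 reads summed over WT FAC and 4 over WT AC. No WT library reached the filter's minimum count of 10 for Pck1, so it was tested only through its KO libraries. Its calls for KO over WT are therefore not independent of the filter. FAC raised 9 of the 10 markers in KO cells, from 1.21-fold (Alb) to 2.11-fold (Pck1), and lowered none there. In WT cells it raised 6 and lowered Apob (−0.73 ± 0.22) and Cps1 (−0.51 ± 0.16, edgeR adjusted p = 0.0428 and 0.0458). FAC raised 15% and lowered 14.6% of all tested genes in KO cells, and raised 8.7% and lowered 8.55% in WT cells. Markers of other liver cells differed between genotypes, and the same shares of all tested genes stand beside their counts. The 7 stellate markers in the table summed to 4.63 to 6.69 CPM in KO FAC, 6.08 to 6.86 in KO AC, 10.6 to 11.5 in WT FAC and 13 to 16 in WT AC. Of the 4 tested, 3 (Col1a1, Col3a1 and Dcn) were lower in KO than WT under each treatment, on 2 to 11 reads summed over a KO group. No KO library reached the filter's minimum count of 10 for these genes, so they were tested only through their WT libraries. Their calls for KO against WT are therefore not independent of the filter. The 8 endothelial markers summed to 42.0 to 46.0, 36.9 to 41.1, 39.3 to 46.2 and 27.1 to 33.4 CPM in the same order of groups, with Clec4g at 0 in all groups but WT AC. Of the 7 tested, 4 were lower in KO than WT and 2 higher, under each treatment. Among those lower, Kdr and Tek reached the filter's minimum count of 10 in no KO library, so they too were tested only through WT libraries. The 7 Kupffer cell markers summed to 728 to 863, 556 to 688, 652 to 704 and 349 to 424 CPM. That sum is mostly Cd68, while the Kupffer marker Clec4f was at 0 in both KO groups and Timd4 in both FAC groups. Of the 3 tested, Cd68 was higher in KO than WT and Adgre1 and Marco were lower, under each treatment. Adgre1 was at −2.72 ± 0.50 under FAC and −2.76 ± 0.33 under AC, and Marco at −2.94 ± 0.69 and −2.75 ± 0.43. Adgre1 had 5, 17, 38 and 123 reads summed over KO FAC, KO AC, WT FAC and WT AC. Marco had 4, 17, 36 and 122. No KO library reached the filter's minimum count of 10 for Adgre1 or Marco, so both were tested only through their WT libraries. Their calls for KO against WT are therefore not independent of the filter. With FAC, Cd68 rose in KO and WT cells, and Adgre1 (−1.64 ± 0.29) and Marco (−1.70 ± 0.38) fell in WT cells. In KO cells Adgre1 (−1.59 ± 0.58) and Marco (−1.89 ± 0.79) were not called for FAC (edgeR adjusted p = 0.0517 and 0.087). The 7 cholangiocyte markers summed to 151 to 165, 107 to 113, 344 to 387 and 394 to 413 CPM, mostly Spp1, with Krt7 and Cftr at 0 in KO FAC. Of the 5 tested, Krt19 and Sox9 were higher and Spp1 lower in KO than WT under FAC. Under AC only Spp1 was called, lower in KO. With FAC, Krt19 and Spp1 rose and Slc5a1 fell in KO cells, and only Slc5a1 was called in WT cells, where it fell. The part of these cell types in the transporter results was not tested. In bulk RNA, fewer cells of a type and less RNA per cell cannot be told apart.

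In KO cells 8 of the 10 transporters changed with FAC, where 29.6% of all tested genes did. The FAC and AC libraries of KO cells did not overlap for 8 of them, against 38.8% of all tested genes. Slc10a1, Slco1b2, Slco1a1, Slco1a4 and Abcc4 rose (15% of all tested genes rose), and Abcc2, Abcc3 and Abcg2 fell (14.6% of all tested genes fell). In WT cells 3 of the 10 changed with FAC, where 17.2% of all tested genes did. Abcc3 and Abcg2 fell (8.55% of all tested genes fell) and Slco1a4 rose (8.7% rose), and the libraries did not overlap for 4 of the 10, against 43.2% of all tested genes. KO differed from WT for 8 transporters under FAC (49.5% of all tested genes), 6 higher (24.6%) and 2 lower (24.9%), and the libraries did not overlap for 9 (59.1%). Under AC it differed for 7 (42.9%), 5 higher (21.7%) and 2 lower (21.2%), with no overlap for 7 (53%). Both counts of higher genes include Slco1a4, which passed the filter only through its KO libraries. The median log2 fold change of the 10 genes was 0.39 for FAC in KO, −0.04 for FAC in WT, 0.52 for KO under FAC and 0.34 for KO under AC. Over all tested genes it lay between −0.01 and 0 in each. Called means past an adjusted p of 0.05 in edgeR's quasi-likelihood test, with Benjamini-Hochberg adjustment over all tested genes. The 4 comparisons share libraries, so they are not independent of each other. Without KO AC 1 and KO FAC 6 the comparisons called 7 transporters for FAC in KO, 4 for FAC in WT, 9 for KO under FAC and 8 for KO under AC, beside 3770, 2958, 6175 and 5460 of all 12275 tested genes. When KO FAC 4 was left out in place of KO FAC 6 the numbers of transporters were the same, beside 4780, 3169, 6471 and 5649 of all tested genes.

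**Figure D1:**
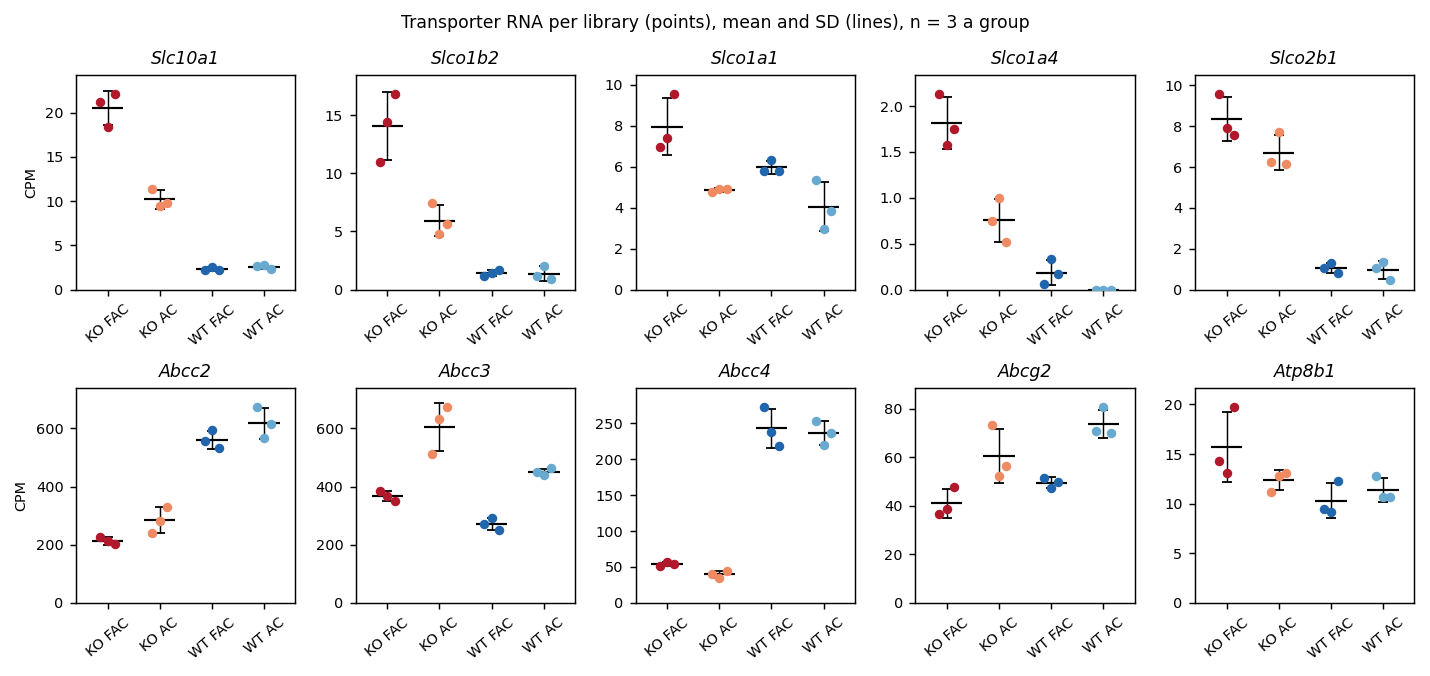
RNA level of each transporter gene in CPM (linear axes from 0) in the 12 libraries. Points are libraries, horizontal lines the mean and bars the SD of 3 libraries. Slc10a1, Slco1b2, Slco1a4 and Slco2b1 were higher in every KO library than in every WT library, and Abcc2 and Abcc4 were lower in every KO library.

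The promoters of 4 genes that differed between genotypes under FAC and AC are shown, Slc10a1 and Slco1b2 (higher in KO) and Abcc2 and Abcc4 (lower in KO). They were picked after the values were seen, so that the letters of genes that moved in opposite directions can be set side by side. Each is the 300 bases from 250 before to 50 after a gene's start, from RefSeq on GRCm38.p6, on the strand of the gene. Where the promoter table gave several starts for a gene, the one farthest upstream in that table was used. The annotated genes Slco1b2 and Abcc4 begin farther upstream than the start used here, and the Abcc4 window lies inside the gene. Capitals mark matches, on either strand, to AGGTCA (a nuclear receptor core), TGACNNNGC (the core of the antioxidant response element) or GTTAAT (an HNF1 core).
Slc10a1: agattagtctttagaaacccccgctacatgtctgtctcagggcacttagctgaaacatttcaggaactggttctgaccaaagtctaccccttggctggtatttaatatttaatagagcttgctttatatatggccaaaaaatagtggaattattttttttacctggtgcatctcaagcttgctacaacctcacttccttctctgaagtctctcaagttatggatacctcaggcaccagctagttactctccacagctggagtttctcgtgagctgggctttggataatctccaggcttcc
Slco1b2: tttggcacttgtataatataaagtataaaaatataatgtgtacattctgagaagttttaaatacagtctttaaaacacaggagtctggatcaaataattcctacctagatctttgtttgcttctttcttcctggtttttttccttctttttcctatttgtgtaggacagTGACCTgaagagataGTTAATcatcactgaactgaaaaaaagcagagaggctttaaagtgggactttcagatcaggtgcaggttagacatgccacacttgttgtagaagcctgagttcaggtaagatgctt
Abcc2: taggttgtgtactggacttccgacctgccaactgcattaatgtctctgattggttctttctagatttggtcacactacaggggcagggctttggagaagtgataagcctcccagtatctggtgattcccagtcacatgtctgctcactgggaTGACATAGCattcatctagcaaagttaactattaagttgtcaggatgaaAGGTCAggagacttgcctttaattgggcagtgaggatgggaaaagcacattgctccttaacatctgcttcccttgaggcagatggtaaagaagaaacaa
Abcc4: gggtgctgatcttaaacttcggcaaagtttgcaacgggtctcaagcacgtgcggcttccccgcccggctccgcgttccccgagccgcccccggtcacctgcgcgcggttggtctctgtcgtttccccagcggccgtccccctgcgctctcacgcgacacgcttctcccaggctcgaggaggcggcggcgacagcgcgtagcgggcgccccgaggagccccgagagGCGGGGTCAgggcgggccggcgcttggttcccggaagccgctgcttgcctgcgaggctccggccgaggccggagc
The Slc10a1 window (chr12:80968656-80968955, minus strand) held no match to any of these. The Slco1b2 window (chr6:141629268-141629567, plus strand) held AGGTCA on the minus strand, starting 81 bases before the start, and GTTAAT 66 bases before it. The Abcc2 window (chr19:43782058-43782357, plus strand) held AGGTCA 49 bases before the start and TGACATAGC 98 bases before it. The Abcc4 window (chr14:118706170-118706469, minus strand) held the antioxidant core on the minus strand, 25 bases before the start, and was the richest in G and C at 72.7%. Of 27025 promoter windows of the same length, 16% held AGGTCA, 12.4% TGACNNNGC and 7.22% GTTAAT. The perfect inverted repeat of AGGTCA with 1 base between the copies is the classic form of an Fxr site and contains the AGGTCA core. It was in 3 of the 27025 windows and in none of the 8 transporter windows examined. Abcc3 and Atp8b1 were not among them. A match is a description of letters and not of a bound site.

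Slc10a1 encodes the sodium-dependent bile acid carrier Ntcp, the main uptake route for conjugated bile acids. The gene (identifier 20493) lies on chromosome 12, 80953185 to 80968705 in GRCm38.p6. Its level was 21.2, 18.4 and 22.1 CPM in the KO FAC libraries, against 11.4, 9.46 and 9.77 CPM in the KO AC libraries. In WT cells it was 2.20, 2.57 and 2.24 CPM under FAC, against 2.62, 2.76 and 2.30 CPM under AC. The KO FAC libraries lay above all KO AC libraries, and both lay above every WT library, while WT FAC and WT AC overlapped. FAC raised the gene in KO cells 2.01-fold (log2 fold change 1.01 ± 0.12, SE, edgeR adjusted p = 5.79e-05). In WT cells the value was −0.13 ± 0.16 (edgeR adjusted p = 0.66). The FAC effect differed between the genotypes by 1.14 ± 0.20 (edgeR adjusted p = 0.0105), KO minus WT, the single transporter of the 10 past the threshold for that difference. Of all tested genes 3.15% passed it, 1.87% higher and 1.28% lower. It passed without each library in turn, at adjusted p from 0.00659 to 0.0402. KO exceeded WT by 3.13 ± 0.14 under FAC and 1.99 ± 0.14 under AC (edgeR adjusted p = 6.34e-10 and 9.84e-08), which is 8.77-fold and 3.98-fold. The WT levels rest on 39 to 51 reads per library.

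Slco1b2 encodes the liver carrier Oatp1b2, which takes up unconjugated bile acids, bilirubin conjugates and many drugs. It lies on chromosome 6, 141629452 to 141686646. The KO FAC libraries had 11, 14.4 and 16.8 CPM, against 7.40, 4.76 and 5.64 CPM in KO AC. The WT FAC libraries had 1.19, 1.42 and 1.66 CPM, against 1.2, 2.06 and 0.875 CPM in WT AC. KO FAC lay above KO AC and both lay above every WT library, while WT FAC and WT AC overlapped. The WT levels rest on 16 to 38 reads per library. FAC raised it in KO cells by 1.25 ± 0.23 on the log2 scale (edgeR adjusted p = 0.0014), and the WT value was 0.05 ± 0.33 (edgeR adjusted p = 0.944). The difference of these effects was 1.2 ± 0.40 and missed the threshold (edgeR adjusted p = 0.123). It passed with limma on log2(FPKM + 1), at 0.0366, and without KO AC 1 and KO FAC 4, at 0.0122. In that last fit treatment in KO cells coincides with the third principal component. With any single library left out it did not pass (edgeR adjusted p from 0.0575 to 0.358). KO exceeded WT 9.84-fold under FAC (3.30 ± 0.27) and 4.29-fold under AC (2.10 ± 0.28; edgeR adjusted p = 4.13e-07 and 5.91e-05).

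Slco1a1 and Slco1a4 lie near each other on chromosome 6 (141907281 to 141946962 and 141805438 to 141856284). They encode Oatp1a1 and Oatp1a4, rodent carriers of bile acids, steroid conjugates and other organic anions. Their coding sequences are 86.9% identical, with identical stretches of up to 132 bases, so the split of reads between them and with Slco1a5 and Slco1a6 is uncertain. Slco1a1 had 6.95, 7.39 and 9.55 CPM in KO FAC, against 4.76, 4.93 and 4.89 CPM in KO AC. It had 5.81, 6.35 and 5.79 CPM in WT FAC, against 5.34, 2.98 and 3.83 CPM in WT AC. FAC libraries lay above AC libraries in both genotypes, and the KO AC and WT AC libraries overlapped. The rise passed in KO cells (0.71 ± 0.19, edgeR adjusted p = 0.012), but not without KO FAC 6 (0.0516), without KO AC 1 and KO FAC 6 (0.0645) or with TPM values (0.0722). In WT cells it was 0.56 ± 0.19 and just missed (edgeR adjusted p = 0.0598), and it passed at 0.0136 without WT AC 1, the highest AC library. It also passed in a fit of the WT groups alone (0.047), without KO FAC 4 (0.0477) or KO FAC 6 (0.0433), and without KO AC 1 together with KO FAC 6 (0.0322) or KO FAC 4 (0.035). KO against WT did not pass for Slco1a1, at 0.41 ± 0.18 under FAC and 0.26 ± 0.20 under AC (edgeR adjusted p = 0.0777 and 0.299). It passed without KO FAC 4, WT AC 1 or WT AC 2 under FAC (0.0434, 0.0363 and 0.0479). It also passed under FAC with KO AC 1 and KO FAC 4 both left out (0.0339) and in a fit of the FAC groups alone (0.0451). Under AC it passed without WT AC 1 (0.0479). Without single libraries KO against WT ran from 0.26 to 0.52 under FAC (edgeR adjusted p from 0.0363 to 0.289). Under AC it ran from 0.08 to 0.51 (edgeR adjusted p from 0.0479 to 0.761).

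Slco1a4 was the scarcest of the 10, with 35, 24 and 30 reads in the KO FAC libraries, against 13, 18 and 9 reads in KO AC. It had 1, 6 and 3 reads in WT FAC, and no read in any of the 3 WT AC libraries. Every KO library thus exceeded every WT library. No WT library reached the filter's minimum count of 10, so the gene was tested only through its KO libraries. Its calls for KO over WT are therefore not independent of the filter. Against a floor of 3 reads over the WT AC group, the gene was at least 13.9-fold higher in KO AC than in WT AC (edgeR adjusted p = 0.000197). On the same floor it was at least 3.44-fold higher in WT FAC than in WT AC (edgeR adjusted p = 0.0251). This second comparison rests on 10 reads, and the call was lost without WT FAC 5, WT FAC 6 or any WT AC library (0.0521 to 0.0884) and with limma on log2(FPKM + 1) or log2(TPM + 1) (0.25 and 0.195). In KO cells FAC raised it by 1.26 ± 0.35 (edgeR adjusted p = 0.0192), a call lost without KO AC 3 (0.0808) and without KO AC 1 and KO FAC 4 (0.0532). KO exceeded WT under FAC by 3.23 ± 0.44 (edgeR adjusted p = 0.000109).

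Slco2b1 encodes Oatp2b1, a carrier of sulfated steroids and drugs, and lies on chromosome 7, 99657804 to 99711340. It had 9.57, 7.91 and 7.57 CPM in KO FAC, against 6.25, 7.69 and 6.17 CPM in KO AC. It had 1.07, 1.31 and 0.803 CPM in WT FAC, against 1.04, 1.35 and 0.492 CPM in WT AC. Genotype separated the libraries and FAC did not. The WT levels rest on 9 to 25 reads per library. KO exceeded WT by 2.96 ± 0.26 under FAC and 2.79 ± 0.26 under AC (edgeR adjusted p = 7.58e-07 and 2.3e-06). FAC gave 0.32 ± 0.21 in KO and 0.15 ± 0.33 in WT cells (edgeR adjusted p = 0.268 and 0.803).

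**Figure D2:**
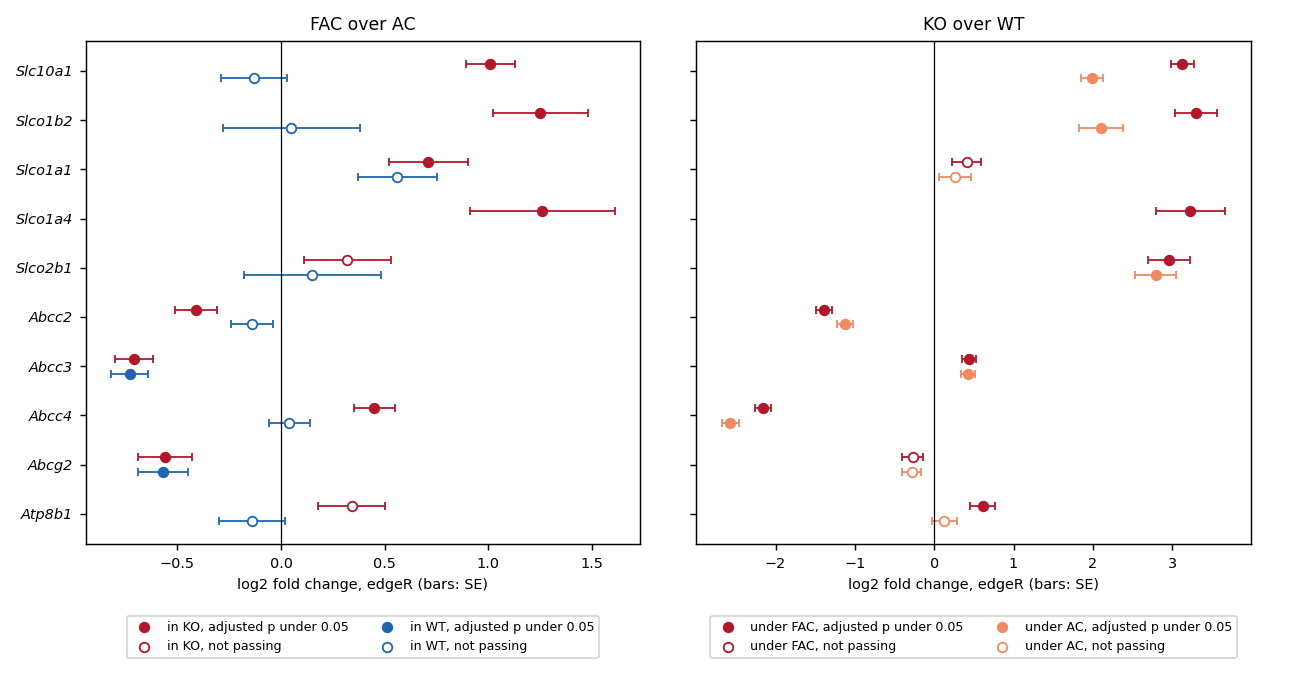
Log2 fold changes with their SE for FAC over AC in KO and WT cells (left) and for KO over WT under FAC and AC (right). Filled points passed an edgeR adjusted p under 0.05. Folds of Slco1a4 against WT AC, where no library had a read, are not drawn. Abcc3 and Abcg2 have nearly the same FAC fold in both genotypes, while Slc10a1 stands at 1.01 in KO cells and −0.13 in WT cells.

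Abcc2 encodes Mrp2, the canalicular pump for bilirubin glucuronides and glutathione conjugates. It lies on chromosome 19, 43782308 to 43838332. Its level was 228, 212 and 201 CPM in KO FAC, against 241, 283 and 329 CPM in KO AC. It was 556, 594 and 532 CPM in WT FAC, against 672, 566 and 616 CPM in WT AC. All KO libraries lay below all WT libraries, and within KO all FAC libraries lay below the AC libraries. KO was lower than WT under FAC (log2 fold change −1.39 ± 0.10) and under AC (−1.12 ± 0.10; edgeR adjusted p = 1.51e-07 and 1.63e-06). FAC lowered it in KO cells (−0.41 ± 0.10, edgeR adjusted p = 0.0082) and gave −0.14 ± 0.10 in WT cells (edgeR adjusted p = 0.362). The difference of the FAC effects was −0.27 ± 0.14 (edgeR adjusted p = 0.319), and it passed at 0.027 without KO AC 1 and KO FAC 4. In that fit treatment in KO cells coincides with the third principal component. With any single library left out the difference did not pass (edgeR adjusted p from 0.0839 to 0.566).

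Abcg2 encodes Bcrp, a canalicular pump for urate and sulfated conjugates, and lies on chromosome 6, 58584491 to 58692451. It had 36.5, 38.5 and 47.9 CPM in KO FAC, against 73.1, 52.3 and 56.3 CPM in KO AC. It had 51.5, 47.2 and 49.9 CPM in WT FAC, against 70.7, 80.5 and 70.0 CPM in WT AC. FAC libraries were below AC libraries in both genotypes, and KO and WT overlapped under each treatment. FAC lowered it by nearly the same amount in KO (−0.56 ± 0.13) and WT cells (−0.57 ± 0.12; edgeR adjusted p = 0.00514 and 0.00682). The difference of these effects was 0.01 ± 0.18. KO against WT gave −0.27 ± 0.13 under FAC and −0.28 ± 0.12 under AC, which did not pass (edgeR adjusted p = 0.0888 and 0.079). Without KO AC 1 it passed under FAC and under AC (0.0314 and 0.00548), and without KO FAC 6 too (0.0194 and 0.0468). With all libraries it passed in limma, under FAC and under AC, on log2(FPKM + 1) (0.0198 and 0.0258), log2(FPKM + 0.1) (0.0184 and 0.026) and log2(TPM + 1) (0.00618 and 0.0121). Without KO AC 1 and KO FAC 6 it passed at 0.0016 and 0.000704, and without KO AC 1 and KO FAC 4 it passed under AC (0.00165). Over all fits without a single library it ran from −0.40 to −0.18 under FAC (edgeR adjusted p from 0.0194 to 0.291). Under AC it ran from −0.44 to −0.19 (edgeR adjusted p from 0.00548 to 0.283).

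Atp8b1 encodes Fic1, a flippase that moves phosphatidylserine to the inner leaflet of the canalicular membrane, and its human counterpart is mutated in familial cholestasis. It lies on chromosome 18, 64528979 to 64661272. It had 14.3, 13.1 and 19.7 CPM in KO FAC, against 11.2, 12.8 and 13.1 CPM in KO AC. It had 9.48, 9.14 and 12.3 CPM in WT FAC, against 12.8, 10.7 and 10.7 CPM in WT AC. KO FAC lay above both WT groups, and the other pairs of groups overlapped. KO against WT under FAC passed, at 0.61 ± 0.16 (edgeR adjusted p = 0.00645), though not with TPM values (0.30, adjusted p = 0.101). FAC gave 0.34 ± 0.16 in KO and −0.14 ± 0.16 in WT cells (edgeR adjusted p = 0.12 and 0.599), and KO against WT under AC gave 0.13 ± 0.16 (edgeR adjusted p = 0.554).

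Abcc3 encodes Mrp3, the basolateral pump for glucuronides, and lies on chromosome 11, 94343295 to 94393017. It had 386, 369 and 351 CPM in KO FAC, against 513, 631 and 672 CPM in KO AC. It had 271, 291 and 252 CPM in WT FAC, against 450, 440 and 462 CPM in WT AC. All 4 groups were separate, in the order KO AC, WT AC, KO FAC and WT FAC from high to low. FAC lowered it by nearly the same amount in KO (−0.71 ± 0.09) and WT cells (−0.73 ± 0.09; edgeR adjusted p = 9.83e-05 and 0.000119), and the difference was 0.01 ± 0.12. KO exceeded WT by 0.44 ± 0.09 under FAC and 0.43 ± 0.09 under AC (edgeR adjusted p = 0.00105 and 0.00171). With TPM values the first of these missed the threshold (0.24, adjusted p = 0.0549).

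Abcc4 encodes Mrp4, a basolateral pump that carries bile acids together with glutathione, and cyclic nucleotides. It lies on chromosome 14, 118482692 to 118707856. It had 51.0, 57.0 and 54.7 CPM in KO FAC, against 40.1, 34.6 and 44.8 CPM in KO AC. It had 272, 238 and 218 CPM in WT FAC, against 253, 219 and 237 CPM in WT AC. Every KO library was far below every WT library, and within KO the FAC libraries were above the AC libraries. KO was 4.47-fold lower than WT under FAC (−2.16 ± 0.10) and 5.93-fold lower under AC (−2.57 ± 0.11; edgeR adjusted p = 1.56e-09 and 4.35e-10). FAC raised it in KO cells by 0.45 ± 0.10 (edgeR adjusted p = 0.006), a call lost with TPM values (0.23, adjusted p = 0.122). FAC gave 0.04 ± 0.10 in WT cells (edgeR adjusted p = 0.83), and the difference of 0.41 ± 0.14 did not pass (edgeR adjusted p = 0.136). The cholangiocyte marker Spp1, which other cells also express, moved with it, at 82.4 ± 3.27 CPM in KO FAC, 52.2 ± 7.78 in KO AC, 337 ± 27.5 in WT FAC and 361 ± 5.78 in WT AC (SD, n = 3 each). Krt19 and Sox9, other cholangiocyte markers, were higher in KO than WT under FAC (1.59 ± 0.22 and 0.97 ± 0.20, edgeR adjusted p = 8.68e-05 and 0.00144). Neither was called under AC, and the cholangiocyte markers Epcam and Slc5a1 were called under neither treatment. The part of these cells in the Abcc4 result was not tested.

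Per length, in FPKM, the order of the genes differed by genotype. In KO cells Abcc3 stood first, at a mean of 70.5 ± 2.08 FPKM in KO FAC and 123 ± 17.8 in KO AC, and Abcc2 second, at 37.9 ± 1.75 and 53.7 ± 8.80 (SD, n = 3 each). In WT cells Abcc2 stood first, at 109 ± 5.96 FPKM in WT FAC and 124 ± 12.8 in WT AC, and Abcc3 second, at 56.7 ± 4.01 and 97.2 ± 3.36. These neighbours did not overlap in any group. Slc10a1 came next after Abcg2 in KO FAC, at 12.2 ± 1.32 FPKM, above Abcc4 at 9.23 ± 0.560, and the libraries of this pair overlapped in KO AC (6.45 ± 0.657 and 7.24 ± 0.960). In WT cells Slc10a1 was at 1.55 ± 0.142 FPKM under FAC and 1.77 ± 0.170 under AC, while Abcc4 was at 44.8 ± 5.09 and 45.2 ± 3.89. In WT FAC the levels of Atp8b1, Slco1a1 and Slc10a1 overlapped from each to the next, and in KO FAC those of Atp8b1, Slco2b1 and Slco1a1 did. Slco1a4 was last in every group. Abcc2, Abcc3, Abcc4 and Abcg2 summed to 136 ± 1.55 FPKM in KO FAC, 213 ± 23.0 in KO AC, 234 ± 12 in WT FAC and 304 ± 17.7 in WT AC. The 5 uptake genes summed to 20.9 ± 2.12, 11.6 ± 0.849, 3.95 ± 0.297 and 3.61 ± 0.518 FPKM in the same order of groups.

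**Figure D3:**
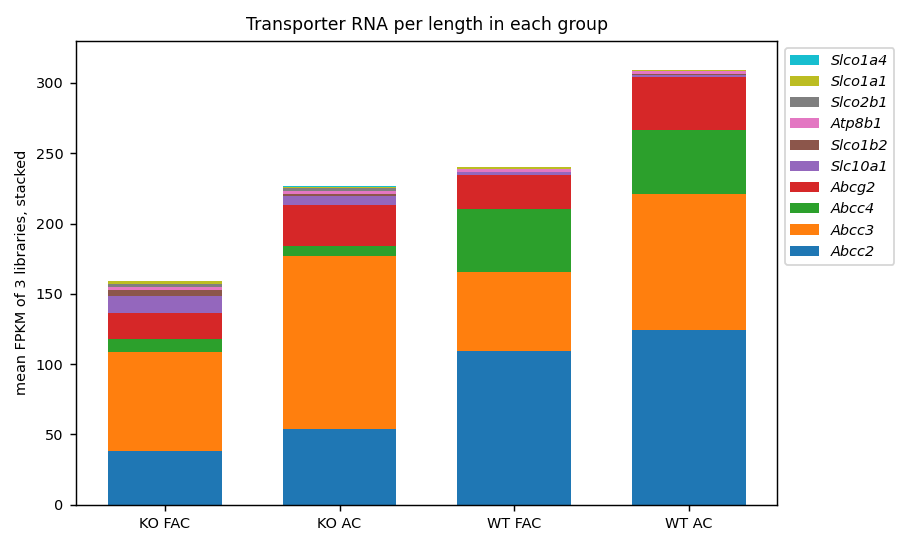
Mean FPKM (as deposited, scaled by gene length and library total) of the 10 transporters, stacked for each group, 3 libraries a group. Abcc3 is the largest segment in KO groups and Abcc2 in WT groups, and Slc10a1 reaches 12.2 FPKM in KO FAC against 1.55 in WT FAC.

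Within each library the ratio of Abcc3 to Abcc2 FPKM, the basolateral over the canalicular pump, was 1.82, 1.88 and 1.88 in KO FAC, against 2.29, 2.41 and 2.20 in KO AC. It was 0.526, 0.528 and 0.511 in WT FAC, against 0.720, 0.835 and 0.806 in WT AC. The 4 groups did not overlap. The ratio of Abcc4 to Abcc2 was 0.216 to 0.259 in KO FAC, 0.119 to 0.160 in KO AC, 0.380 to 0.467 in WT FAC and 0.358 to 0.370 in WT AC. A ratio within a library does not depend on how the library is scaled. These ratios were chosen after the levels were seen and are given without a test. An exact permutation of 3 against 3 libraries could not reach a two-sided p below 0.1.

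**Figure D4:**
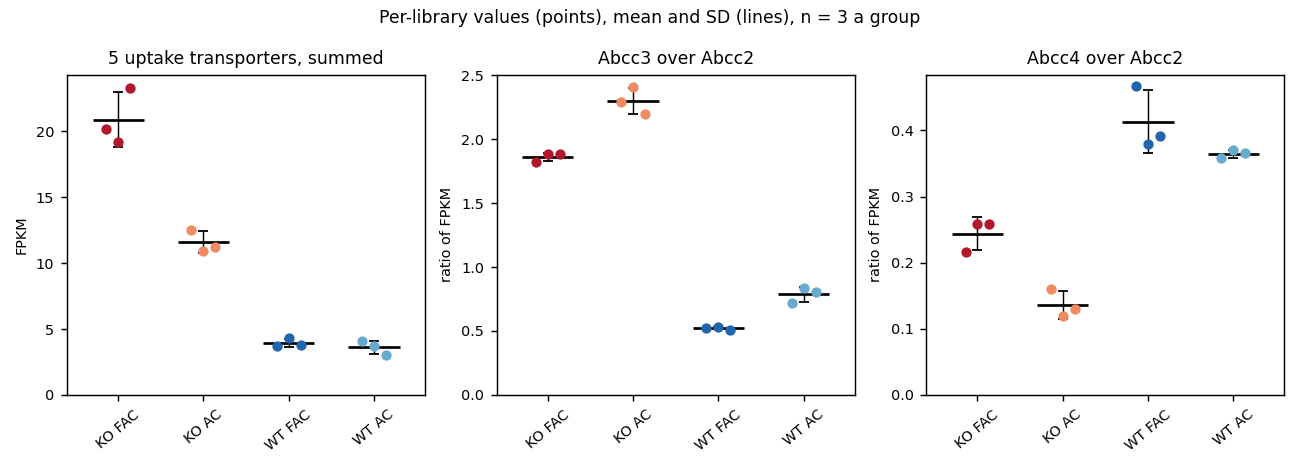
Summed FPKM of the 5 uptake genes (left), and the ratios of Abcc3 (middle) and Abcc4 (right) to Abcc2 in FPKM, by library (points) with mean and SD of 3. The summed uptake genes reach 20.9 FPKM in KO FAC against 3.95 in WT FAC, and Abcc3 exceeds Abcc2 in all KO libraries and in no WT library.

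Other genes of the circuit were taken from lists chosen by name. Abcb11, the bile salt export pump gene and a known Fxr target, was at 4.57 ± 0.69 CPM in KO FAC, 2.18 ± 0.332 in KO AC, 5.88 ± 1.09 in WT FAC and 6.10 ± 0.734 in WT AC (SD, n = 3 each). It rose with FAC in KO cells (1.06 ± 0.20, edgeR adjusted p = 0.00164) and was at −0.05 in WT cells (edgeR adjusted p = 0.877). It was lower in KO than WT under AC (−1.48 ± 0.19, edgeR adjusted p = 4.7e-05) and not called under FAC (−0.37 ± 0.18, edgeR adjusted p = 0.102). Its FAC effect differed between the genotypes by 1.11 ± 0.26 (edgeR adjusted p = 0.0392). Of the 9 other canalicular genes, Abcb11 among them, 4 rose (15% of all tested genes) and 1 fell (14.6%) with FAC in KO cells. In WT cells none rose (8.7% of all tested genes) and 1 fell (8.55%). KO against WT gave 4 higher (24.6% of all tested genes) and 1 lower (24.9%) under FAC and 2 higher (21.7%) and 2 lower (21.2%) under AC. Beyond the largest folds given next, the called genes of this list, named after their values were seen, were Abcg5 (0.82 ± 0.27) and Atp7b (−0.57 ± 0.15) for FAC in KO, and Abcb1a (0.63 ± 0.12) under FAC and Abcg8 (0.96 ± 0.32 under FAC, 1.07 ± 0.33 under AC) for KO against WT. The organic cation exporter gene Slc47a1 rose with FAC in KO cells (1.11 ± 0.18) and was higher in KO than WT under FAC (2.53 ± 0.20) and AC (1.78 ± 0.21). The drug pump gene Abcb1a rose with FAC in KO cells (0.83 ± 0.12), and its neighbour Abcb1b was lower in KO than WT under FAC (−1.09 ± 0.17) and AC (−1.13 ± 0.17). The sterol pump gene Abcg5 was higher in KO than WT under FAC (1.97 ± 0.30), and the copper pump gene Atp7b fell with FAC in WT cells (−0.67 ± 0.15).

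Of the other uptake carriers, 24 of 26 listed genes were in the table and 19 were tested. With FAC, 3 rose (15% of all tested genes) and 4 fell (14.6%) in KO cells, and 2 rose (8.7%) and 1 fell (8.55%) in WT cells. KO against WT gave 6 higher (24.6% of all tested genes) and 4 lower (24.9%) under FAC, and 8 higher (21.7%) and 3 lower (21.2%) under AC. The organic anion carrier family genes Slc22a27 (3.66 ± 0.41 under FAC, 3.31 ± 0.43 under AC) and Slc22a30 (2.69 ± 0.32 under FAC) were higher in KO, on 10 to 34 reads summed over a WT group, and Slc22a30 rose with FAC in KO cells (1.68 ± 0.29). Slc10a2, the bile acid carrier of the ileum, was higher in KO under FAC (2.82 ± 0.41) and AC (2.12 ± 0.46), on 12 to 93 reads summed over a group. For Slc22a27 and Slc10a2 no WT library reached the filter's minimum count of 10, so both were tested through their KO libraries. Slc10a2 also rose with FAC in KO cells (0.97 ± 0.33), where Slc17a3, of the phosphate and organic anion carrier family, fell (−1.10 ± 0.22). Slco1c1, a thyroid hormone carrier gene, rose with FAC in WT cells (1.92 ± 0.54) and was higher in KO than WT under AC (2.51 ± 0.50), on 9 to 85 reads summed over a group. In WT cells FAC also raised the organic anion carrier gene Slc22a7 (0.89 ± 0.27) and lowered the prostaglandin carrier gene Slco2a1 (−0.52 ± 0.16). The FAC effects differed between genotypes for Slc17a3 (−1.22 ± 0.31), Slco2a1 (0.96 ± 0.22) and Slc10a3 (−0.85 ± 0.17; edgeR adjusted p = 0.0479, 0.0388 and 0.0238).

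Of the other basolateral efflux genes 8 of 9 were in the table and 6 tested. Abca1, the cholesterol efflux gene, fell with FAC in KO (−0.60 ± 0.15) and WT cells (−0.91 ± 0.14), and no other was called for FAC. Abca1 was also lower in KO than WT under FAC (−0.40 ± 0.15) and AC (−0.71 ± 0.14). Abcc6 was higher in KO than WT under FAC (1.53 ± 0.27) and AC (1.44 ± 0.28), as was the cyclic nucleotide pump gene Abcc5 (0.79 ± 0.13 and 0.42 ± 0.13). Slc51b, a subunit of the basolateral bile acid exporter and a known Fxr target, had 2, 0, 1 and 3 reads summed over KO FAC, KO AC, WT FAC and WT AC and was not tested, and Slc51a, the other subunit, was not analysed here. Of 17 flippase, scaffold and trafficking genes, 4 fell with FAC in KO cells (14.6% of all tested genes) and none rose (15%). In WT cells 3 fell (8.55% of all tested genes) and 1 rose (8.7%). Those that fell in WT cells were Atp8a1 (−0.94 ± 0.22), Atp8b2 (−0.62 ± 0.20) and Atp9a (−0.40 ± 0.08), genes of the same ATPase family as Atp8b1, and they fell in KO cells too (−0.74 ± 0.23, −0.60 ± 0.21 and −0.37 ± 0.08). The vesicle traffic gene Rab11a rose in WT cells (0.30 ± 0.08) and was named after its values were seen. KO against WT gave 3 higher (24.6% of all tested genes) and 3 lower (24.9%) under FAC, and 4 higher (21.7%) and 3 lower (21.2%) under AC. Pdzk1, a scaffold that holds Slco carriers at the membrane, was higher in KO (2.18 ± 0.62 under FAC and 1.93 ± 0.62 under AC), as was Pdzk1ip1 (1.99 ± 0.34 and 1.27 ± 0.32).

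Among 18 genes of regulators, 5 fell with FAC in KO cells (14.6% of all tested genes) and 6 in WT cells (8.55%). None rose, beside 15% of all tested genes in KO cells and 8.7% in WT cells. KO against WT gave 2 higher (24.6% of all tested genes) and 4 lower (24.9%) under FAC, and 2 higher (21.7%) and 3 lower (21.2%) under AC. Nr1h4 fell with FAC in KO (−0.88 ± 0.16) and WT cells (−0.95 ± 0.14; edgeR adjusted p = 0.00124 and 0.00063). Nfe2l2, which encodes the antioxidant regulator Nrf2, an activator of Abcc genes, fell with FAC in KO (−0.83 ± 0.10) and WT cells (−0.33 ± 0.10; edgeR adjusted p = 9.86e-05 and 0.0382). Nr5a2, which encodes Lrh-1, fell as well (−0.87 ± 0.13 and −0.44 ± 0.12). Nr1i3, the gene of the xenobiotic receptor Car, was higher in KO than WT under FAC (3.34 ± 0.49) and AC (2.71 ± 0.50). It had 7 reads summed over WT FAC and 8 over WT AC. No WT library reached the filter's minimum count of 10 for Nr1i3, so it was tested only through its KO libraries. Its calls for KO over WT are therefore not independent of the filter. Nr1i2, the gene of the related receptor Pxr, was not called in any comparison, at 7.22 ± 0.757 CPM in KO FAC, 9 ± 1.31 in KO AC, 6.32 ± 1.19 in WT FAC and 8.73 ± 1.23 in WT AC. Nr0b2, the Fxr target gene that encodes Shp, had 16, 23, 19 and 57 reads summed over the same groups and was not called either. Fgfr4, the receptor gene for the intestinal bile acid signal, fell with FAC in WT cells (−2.68 ± 0.25). It was at −0.47 ± 0.18 in KO cells (edgeR adjusted p = 0.067), and the difference between genotypes passed (2.21 ± 0.32, edgeR adjusted p = 0.00408). KO exceeded WT by 3.29 ± 0.25 under FAC and 1.09 ± 0.19 under AC.

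The genes whose log2 CPM followed each transporter most closely over the 12 libraries were found among all tested genes. For Slc10a1 they were Ahcy (Pearson r = 0.997) and Phyh (0.997), and for Slco1b2 Anpep (0.994) and Upb1 (0.99). For Slco1a1 the closest was Hsf2 (0.928), for Slco1a4 they were Tppp3 (0.988) and Fam214b (0.986), and for Slco2b1 Rdh16 (0.988) and Prlr (0.985). For Abcc2 they were Caprin1 (0.993) and Tubgcp4 (0.99), for Abcc3 Fam168a (0.987) and Trak1 (0.982), and for Abcc4 Cdh17 (0.994) and Mug2 (0.994). For Abcg2 they were Trpc4ap (0.97) and Mettl17 (0.955), and for Atp8b1 Ppp4r4 (0.9) and Fhdc1 (0.889). The 12 libraries fall into 4 groups, so these values mostly describe the order of the group means and carry no test.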

How the data were processed

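BGISEQ-500 standard library preparation is named in the protocols, per the labels. The submitters' processing notes name RSEM, mm10 and GRCm38.p6, and give no versions. Aligner, annotation release, strand setting and filters are not given in the sources used here. As tables, the authors deposited raw estimated counts per gene, together with FPKM values (scaled to transcript length and to depth) and TPM values. The analysis rounded the estimated counts, applied TMM scaling, and used edgeR 4.0.16 (R 4.3.3) to fit a quasi-likelihood model with robust, trended dispersion to all 4 groups. The filterByExpr step, at a minimum count of 10, removed 4453 genes and kept 12275. Benjamini-Hochberg adjustment covered all kept genes. The SE is the absolute log2 fold change over the square root of F. The model was tested on simulated data. Floors cover counting error only. Replicates of every group differed by more than sampling noise.

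All 10 transporters are named in every comparison. Other listed genes are named where a call was among the 3 largest folds of its list in a comparison, and Abcb11, Slc51b and the regulators Nr1h4, Nr0b2, Nr1i2, Nr1i3 and Nfe2l2 always. Some genes that this rule names are not reported here, though the counts include them. The members, lists and alternatives were chosen with earlier results of these data known. Alternatives used limma 3.58.1 on FPKM and TPM values, DESeq2 1.42.0, other scalings and filters, fits of the compared groups alone, and fits without 1 or 2 libraries. Because strand use in counting is not stated, reads of Slco1a1, Slco2b1, Abcc3 and Abcc4 cannot be told apart from those of non-coding genes annotated over them.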

Additional observations from a re-analysis of the deposited data

Results flagged for a closer look

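For Slc10a1, the effect of FAC differed between genotypes by a test of the difference itself. FAC gave a log2 fold change of 1.01 ± 0.12 (SE) in KO cells and −0.13 ± 0.16 in WT cells, a difference of 1.14 ± 0.20 (edgeR adjusted p = 0.0105). All 3 KO FAC libraries lay above all 3 KO AC libraries, and the WT libraries overlapped. The WT levels rest on 39 to 51 reads per library.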

How the results depend on the processing

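Of the transporters' log2 fold changes under all alternatives, 1007 kept their direction and their side of the threshold, 15 lost a call, 28 gained one and 35 turned sign. No value that turned sign was called before or after. With FPKM of at least 5 in 3 samples, only Slc10a1, Abcc2, Abcc3, Abcc4 and Abcg2 were tested, and Slc10a1 reached that level only in KO libraries. Of these, 5 were called for FAC in KO, 4 for KO under FAC and 4 for KO under AC. Of all 8046 genes tested, 2902, 4304 and 3722 were called. For the difference, 2 were called with limma on log2(FPKM + 1), and 3 without KO AC 1 and KO FAC 4, a fit in which treatment in KO cells coincides with the third principal component. Without 1 library each, 7 to 8 were called for FAC in KO, 2 to 4 for FAC in WT, 8 to 9 for KO under FAC, 7 to 8 for KO under AC and 1 for the difference.

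Counts over all genes were 2198 for FAC in KO (3633 with all 4 groups) and 3352 for FAC in WT (2117 with all 4 groups) in fits of the groups compared. For the difference they were 678 with DESeq2, 584 with limma on log2(FPKM + 1) and 1932 without KO AC 1 and KO FAC 4 (387 with all libraries in edgeR). That fit called 4780 genes for FAC in KO and 3169 for FAC in WT. Without 1 library each they ranged from 2365 to 4088 for FAC in KO, 1264 to 2509 for FAC in WT, 5203 to 6378 for KO under FAC, 4144 to 5615 for KO under AC and 93 (without WT AC 3) to 656 (without KO FAC 4) for the difference, a count that moved by over 1.5 times without any library but KO FAC 6 and WT AC 1. The cause was not tested. Of called genes, 50.6% were higher for FAC in KO, and 18.5% with TPM values. With log2(FPKM + 1) it was 33.9%. These shares, with all counts and with TPM, were 50.4% and 22.9% for FAC in WT, 49.7% and 28.2% for KO under FAC, and 50.7% and 32.2% for KO under AC. With TPM values the median log2 fold change of all genes was −0.151, −0.101, −0.17 and −0.109 in these comparisons, against −0.002, −0.002, −0.011 and −0.003 in edgeR.

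Sign changes for FAC in WT were Abcc4 at −0.01 with both FPKM scales and −0.09 with TPM, and Slco1b2 at −0.02 with TPM. Without single libraries the values for FAC in WT ran from −0.05 to 0.11 for Abcc4, −0.20 to 0.45 for Slco1b2 and −0.17 to 0.47 for Slco2b1. For the difference, limma on log2(FPKM + 1), log2(FPKM + 0.1) and log2(TPM + 1) gave 0.15, 0.01 and 0.15 for Slco1a4, −0.02, −0.01 and −0.04 for Abcc3, and −0.01, −0.01 and −0.03 for Abcg2. Without single libraries the difference ran from −0.09 to 0.10 for Abcc3, −0.12 to 0.17 for Abcg2, −0.10 to 0.33 for Slco1a1 and −0.16 to 0.48 for Slco2b1. Without KO AC 1 and KO FAC 6 it was −0.02 for Slco1a1 and −0.06 for Abcc3, and without KO AC 1 and KO FAC 4 it was −0.11 for Abcc3 and 0.26 for Abcg2. The fitted difference for Slco1a4 (−3.51) is set by a group at 0 and is no bound.

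Replicate numbers are shared only between KO and WT of the same treatment, and same-numbered libraries did not deviate together (correlations across genes from −0.142 to 0.208). With the replicate number as a replicate block, 8 transporters were called for KO under FAC and 7 under AC, as without it, and 5688 and 4670 genes in all. Depth limits genes at under 100 reads summed over a group, among the transporters Slco1a4, Slco1b2 (76 in each WT group) and Slco2b1 (57 in WT FAC, 53 in WT AC), and among the others Nr1i3, Nr0b2, Slc51b, Slc10a2, Slco1c1, Slc22a7, Slc22a27, Slc22a30, Slc47a1, Abcg5, Abcg8, Atp8a1, Atp8b2, Pdzk1, Pdzk1ip1 and Fgfr4. Among the cell type markers named it also limits Adgre1, Marco, Kdr, Tek, Col1a1, Col3a1, Dcn, Pck1, Epcam and Slc5a1.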
